A study of Mus musculus with 12 samples.

Results

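The 38 genes described here encode the receptors that neurons use to sense glutamate, the proteins that load glutamate into synaptic vesicles and the scaffolds that hold the receptors in place beneath the postsynaptic membrane. They were chosen by name: 37 belong to these families by their known function, and Shisa6, which encodes a membrane protein that binds AMPA receptors, was added because of its low signal in MRL/lpr relative to Fn14ko mice. Of the 29608 gene names on the array, the 38 members had 68 probes in 77 spots. The 37 members with at least 1 spot that met the filters on quality and brightness had 58 probes in 65 spots, and Grm6 had none. Members were not filtered on their differences between groups.

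Cerebral cortex from 12 adult female mice of about 12 weeks was profiled, with 4 mice in each of 3 groups. MRL/lpr mice carry the lpr mutation of the death receptor gene Fas and develop a lupus-like disease. Fn14ko mice are littermate MRL/lpr mice without Fn14, the receptor of the cytokine TWEAK, obtained after 8 generations of backcrossing, so that they also carry lpr. MRL/+ mice (MRL/MpJ in the deposited labels) have the MRL background without lpr and came from a different vendor. The labels do not say that mice were pooled. MRL/lpr was compared with MRL/+ and with Fn14ko, and Fn14ko with MRL/+. These comparisons share groups and are not independent of each other.

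Each of the 6 arrays held 2 mice of a single group, mouse 1 or 3 in Cy3 and mouse 2 or 4 in Cy5. The groups were also on separate slides, 1 for each group, and the effects of slide and of group cannot be told apart in any of the comparisons. The Cy5 channels of MRL/+ mice 2 and 4 stood apart. In these channels 35.0% and 21.2% of the spots were well above background, against 56.6% or more in the others, and the negative controls reached 6.12 and 6.31 times their surroundings, while those of the other channels reached at most 2.65 times. Signals are given in units of the median retained spot of the same mouse and dye, set to 1. On that scale the negative controls read 0.663 and 0.823 in MRL/+ mice 2 and 4 and 0.0460 to 0.338 in the other 10 mice, so a dim member at about these levels in MRL/+ was close to the level of spots without a target. For several of the results that rest on such values, the Cy3 mice alone are also given. No spot of a member was saturated. The levels of different genes are not compared, because the brightness of a spot depends on its probe, and lower RNA in a piece of tissue can stem from fewer cells of a type or from less RNA per cell, which these data cannot tell apart.

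Glutamate is the main excitatory transmitter of the cortex. AMPA receptors carry the fast current, NMDA receptors admit calcium when the membrane is already depolarized and are needed for many forms of synaptic plasticity, and kainate receptors modulate transmission on both sides of the synapse. Metabotropic receptors act through G proteins. Scaffolds of the PSD-95 (Dlg), Homer and Shank families link these receptors to each other, to calcium stores and to the cytoskeleton. Homer1 is made in long forms, which cross-link their partners, and in a short form, which lacks the domain for cross-linking and is induced by neuronal activity.

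For Homer1 and Grm5 the outcome differed between probes, so the sequences of 4 of these probes are shown to make clear which part of the transcript each of them reads. Coordinates are those of mm9 in the deposited files, all on the plus strand. The short variant of Homer1 (variant S) ends earlier on the chromosome than the long variant (variant L). The capitals in the first sequence mark the stop codon of variant S, and the other sequences carry no mark. The deposited files also list the second probe under variant S, but it lies upstream of the end of that variant and is not taken here to read variant S alone.

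Homer1, end of variant S, chr13:94126009-94126068: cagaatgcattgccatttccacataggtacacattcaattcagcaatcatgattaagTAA

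Homer1, upstream of that end, chr13:94125924-94125983: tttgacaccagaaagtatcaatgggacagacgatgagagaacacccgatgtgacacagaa

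Homer1 variant L, chr13:94157507-94157566: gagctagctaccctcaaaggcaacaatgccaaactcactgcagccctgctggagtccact

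Grm5, chr7:95279335-95279394: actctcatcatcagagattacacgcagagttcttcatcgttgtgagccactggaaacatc

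Relative to MRL/+, MRL/lpr cortex had lower signals of the NMDA receptor subunits Grin2a, Grin2b and Grin2d, the delta receptor Grid1, the metabotropic receptor Grm4, the vesicular transporter Slc17a7 and the scaffolds Homer3 and Shank1, and a higher signal of the AMPA receptor subunit Gria4. These 9 of the 36 members tested passed the limma threshold of an adjusted p of 0.05, 1 higher and 8 lower, where 14.4% of all 17302 genes passed (6.03% higher and 8.37% lower). Relative to Fn14ko, Homer1 alone was higher in MRL/lpr at that threshold, where 4.57% of all genes passed (2.58% higher). Between Fn14ko and MRL/+ no member passed (0 of 36, against 0.954% of all genes, 0.717% lower), although 11 members had an unadjusted limma p under 0.05 and the methods' t-test gave 7 before and 0 after Benjamini-Hochberg adjustment. Shisa6 is left out of these counts and is given no test. Scaling to the 75th percentile of each channel in place of the median lowered the median log2 fold change of all genes by 0.23 against MRL/+ in MRL/lpr, and 11 members then passed in MRL/lpr against MRL/+, of which 0 were higher. With loess and quantile scaling 16 passed, of which 4 were higher. Without MRL/+ mouse 4, 4 members passed in MRL/lpr against MRL/+, and without the first MRL/lpr array, 2 did. In Fn14ko against MRL/+, 6 members passed without Fn14ko mouse 1, 2, 1 and 5 without MRL/+ mouse 1, 2 and 3, and 0 in the other 8 fits that left out a mouse.

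**Figure D1:**
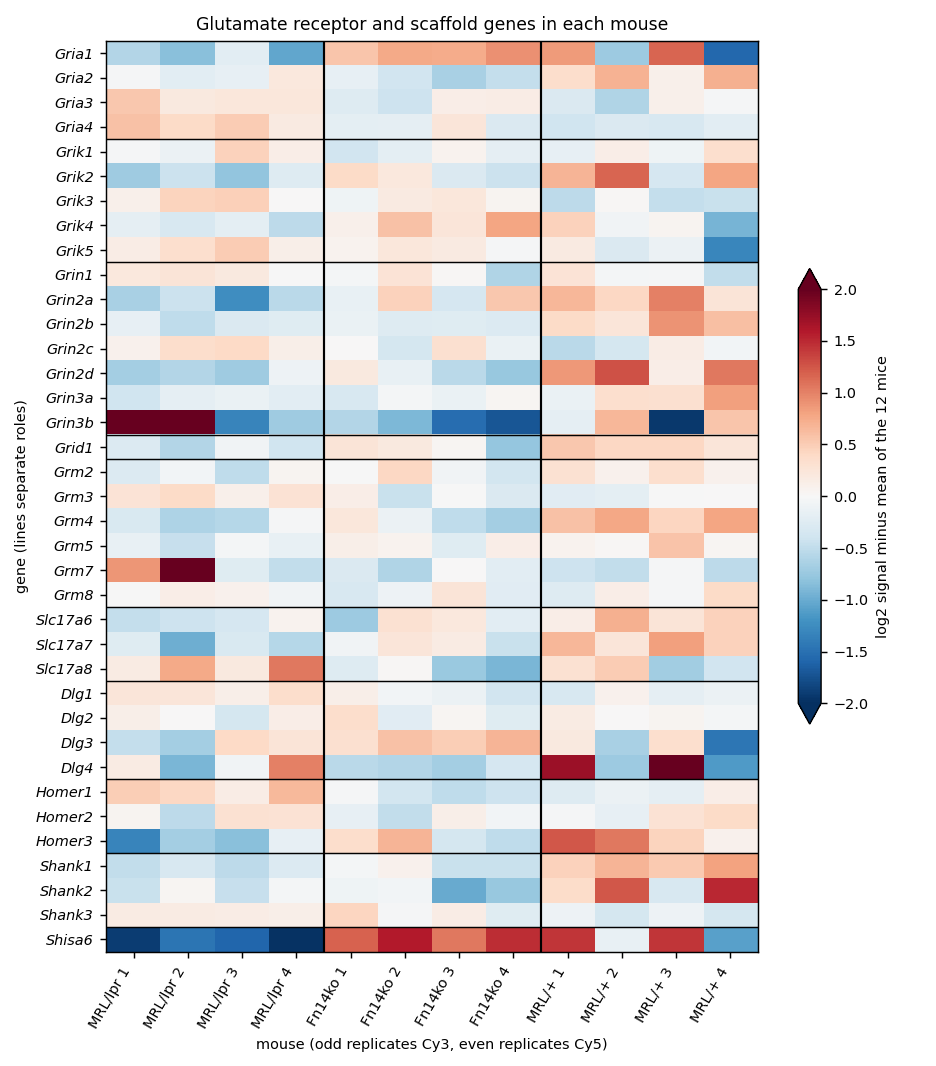
Log2 signal of each retained member (rows, grouped by role) in each of the 12 mice (columns), shown relative to the mean of that gene over all mice. Slc17a7, Grin2b, Grm4 and Shank1 are lower in all 4 MRL/lpr mice than in all 4 MRL/+ mice, Gria1 and Shisa6 are high in Fn14ko and in MRL/+ mice 1 and 3, and Grin3b and Grm7 are high in MRL/lpr mice 1 and 2.

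Over the 36 members the median log2 fold change was -0.14 for MRL/lpr and -0.23 for Fn14ko, each against MRL/+, and was 0.10 for MRL/lpr against Fn14ko. Over all genes the medians were -0.10, -0.10 and -0.07. In MRL/lpr against MRL/+ the 4 mice of the groups did not overlap for 17 members, 6 higher and 11 lower, where 23.9% of all genes did not overlap (10.8% higher and 13% lower). The groups did not overlap for 5 members in Fn14ko against MRL/+, all lower (13.5% of all genes, 6.09% lower), nor for 6 members in MRL/lpr against Fn14ko, 3 in each direction (20.3% of all genes, 8.91% higher and 11.3% lower).

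Of the 4 AMPA receptor subunits, Gria4 passed the test. It encodes a subunit with fast gating that is prominent in interneurons of the adult cortex. The Gria4 signal was 1.56, 1.35, 1.47 and 1.17 in the MRL/lpr mice, 0.903, 0.910, 1.23 and 0.847 in the Fn14ko mice and 0.782, 0.844, 0.827 and 0.899 in the MRL/+ mice. All MRL/lpr mice were above all MRL/+ mice, and Fn14ko mouse 3 was above the lowest MRL/lpr mouse. Relative to MRL/+, Gria4 differed by a log2 fold change of 0.72 ± 0.17 (SE, n = 4) in MRL/lpr (limma, adjusted p = 0.0175). Against Fn14ko it was 0.52 ± 0.17 (limma, adjusted p = 0.120), with a 95% interval of 0.14 to 0.90. Without MRL/+ mouse 4 or with scaling to the 75th percentile, Gria4 no longer passed against MRL/+ (with that scaling 0.49, limma, adjusted p = 0.124). Of its probes, 1 gave 1.06 (limma over single probes, adjusted p = 0.00480) and the other 0.34 (adjusted p = 0.283) in this comparison. In the former probe MRL/+ mouse 4 read 0.658, below the negative controls of its channel (0.823). In the Cy3 mice alone the log2 fold change of Gria4 was 0.91 (limma, adjusted p = 0.0167).

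Gria1, the subunit that carries much of the activity-dependent insertion of AMPA receptors in the forebrain, had signals of 2.04, 1.70, 2.62 and 1.48 in MRL/lpr, 4.48, 5.16, 5.12 and 5.76 in Fn14ko and 5.53, 1.84, 6.82 and 1.03 in MRL/+. The MRL/lpr mice were all below the Fn14ko mice, whereas in MRL/+ the Cy3 mice 1 and 3 were near the level of Fn14ko and the Cy5 mice 2 and 4 within or below the range of MRL/lpr. For Gria1 it amounted to -1.41 ± 0.52 on the log2 scale (SE, n = 4) in MRL/lpr against Fn14ko (limma, adjusted p = 0.156; exact permutation p = 0.0286, the smallest that 4 against 4 mice allow) and -0.60 ± 0.52 against MRL/+ (limma, adjusted p = 0.407). The wide spread of MRL/+ enters both errors, since the variance was estimated over the 3 groups together. A fit without the 2 Cy5 mice of MRL/+ was added after these values had been seen. In that fit Gria1 was lower in MRL/lpr than in Fn14ko by the same -1.41 (limma, adjusted p = 0.0239). Against the remaining MRL/+ mice it was lower by -1.59 (limma, adjusted p = 0.0169).

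Gria2 encodes the subunit that makes AMPA receptors impermeable to calcium. Its signal was 0.438, 0.383, 0.396 and 0.512 in MRL/lpr, 0.395, 0.342, 0.284 and 0.319 in Fn14ko and 0.564, 0.720, 0.478 and 0.729 in MRL/+. All Fn14ko mice were below all MRL/+ mice, with a log2 fold change of -0.88 ± 0.23 (SE, n = 4; limma, adjusted p = 0.0793), and MRL/lpr overlapped with both groups. The Cy5 values of MRL/+, 0.720 and 0.729, were near the negative controls of their channels, and in the Cy3 mice alone Gria2 in Fn14ko was -0.63 (limma, adjusted p = 0.590). For 1 of its probes MRL/lpr exceeded Fn14ko, with 0.512, 0.439, 0.430 and 0.672 against 0.298, 0.277, 0.202 and 0.248, a log2 fold change of 0.99 (limma over single probes, adjusted p = 0.0433). The call was lost without any of 8 of the 12 mice. The other probe gave -0.23 in this comparison. Gria3 was 3.57 to 4.55 in MRL/lpr, 2.35 to 3.47 in Fn14ko and 2.06 to 3.34 in MRL/+. The MRL/lpr mice thus lay above both other groups, but neither difference passed (0.50 against MRL/+ and 0.39 against Fn14ko; limma, adjusted p = 0.105 and 0.330).

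Shisa6 encodes an auxiliary protein that keeps AMPA receptors from desensitizing and traps them at the synapse. Its single probe lies at chr11:66025299-66025358 on the minus strand. The signal was 0.333, 0.454, 0.417 and 0.316 in MRL/lpr, 2.81, 3.72, 2.60 and 3.47 in Fn14ko and 3.34, 1.12, 3.36 and 0.587 in MRL/+. Every MRL/lpr mouse was below every other mouse. The value of MRL/+ mouse 4 (0.587) was, however, below the negative controls of its channel (0.823), the level of spots without a target. As with Gria1, the Cy3 mice 1 and 3 of MRL/+ resembled Fn14ko and the Cy5 mice 2 and 4 were lower. On the log2 scale this was -3.05 in MRL/lpr against Fn14ko, the contrast by which the gene was picked, -2.13 against MRL/+ and -3.27 against MRL/+ without the 2 Cy5 mice. No test is attached to these values.

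**Figure D2:**
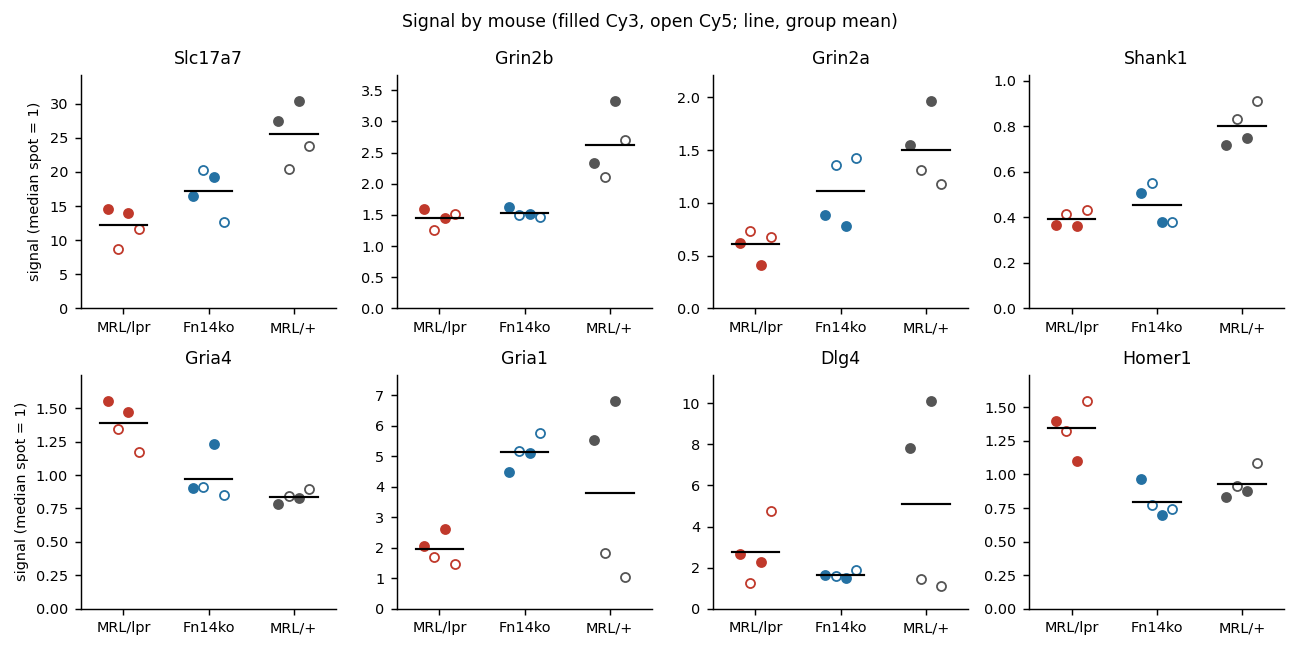
Signal in each mouse of members described singly, among them Slc17a7, Grin2b, Grin2a, Shank1, Gria4, Gria1, Dlg4 and Homer1. Filled points are Cy3, open points Cy5 and lines group means. Vertical axes are linear in units of the median retained spot and start at 0. In MRL/+ the open points of Gria1 and Dlg4 lie far below the filled ones. All 4 MRL/+ points of Grin2b, Slc17a7 and Shank1 lie above all MRL/lpr points.

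None of the 5 kainate receptor subunits passed in any comparison. Grik3 had a log2 fold change of 0.61 in MRL/lpr against MRL/+ (limma, adjusted p = 0.0640), with 1.39 to 1.93 in MRL/lpr and 0.966 to 1.40 in MRL/+, and the groups overlapped in a single pair of mice. Grik2 had -1.13 (limma, adjusted p = 0.0681), but of the MRL/+ signals of 0.410, 0.573, 0.203 and 0.443, those of mice 2 and 4 were below the negative controls of their channels. Grik4, whose product is a high-affinity subunit, was 2.18 to 2.77 in MRL/lpr and 3.34 to 5.39 in Fn14ko, without overlap (-0.73; limma, adjusted p = 0.242). Grik1 and Grik5 had log2 fold changes between -0.23 and 0.66 in the 3 comparisons. Against MRL/+, Grik5 was 0.66 in MRL/lpr and 0.50 in Fn14ko (limma, adjusted p = 0.133 and 0.301). With the scanner software's processed signal, over all retained or only bright spots, Grik5 instead passed as lower in both groups. With the replicate number as a block in place of the dye term, it passed as higher in MRL/lpr. The direction of Grik5 thus depended on the processing.

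Of the 7 NMDA receptor subunits, 3 passed as lower in MRL/lpr than in MRL/+ and none as higher, where 8.37% of all genes passed as lower and 6.03% as higher. All 3 encode GluN2 subunits, which bind glutamate and set the kinetics of the channel. The Grin2b signal, that of the subunit typical of young synapses, was 1.59, 1.26, 1.45 and 1.51 in MRL/lpr, 1.62, 1.50, 1.51 and 1.47 in Fn14ko and 2.33, 2.11, 3.33 and 2.70 in MRL/+. The MRL/lpr and Fn14ko mice lay together, and all 8 were below all 4 MRL/+ mice. The difference between MRL/lpr and Fn14ko was -0.07 on the log2 scale, with a 95% interval of -0.44 to 0.29. Against MRL/+ the log2 fold change was -0.83 ± 0.17 (SE, n = 4; limma, adjusted p = 0.00806) in MRL/lpr and -0.76 ± 0.17 (limma, adjusted p = 0.0540) in Fn14ko. In MRL/lpr the call was kept without each of the 12 mice in turn. The brighter Grin2b probe gave -0.91 in MRL/lpr against MRL/+ (limma over single probes, adjusted p = 0.00899). Its dimmer probe gave -0.51 and did not pass (adjusted p = 0.223), and the groups overlapped there. In Fn14ko against MRL/+ the dimmer probe gave -0.35 (adjusted p = 0.435).

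Grin2a encodes the subunit that accumulates as synapses mature. Its signal was 0.624, 0.731, 0.416 and 0.680 in MRL/lpr, 0.890, 1.36, 0.780 and 1.42 in Fn14ko and 1.55, 1.31, 1.97 and 1.18 in MRL/+. Here the Fn14ko mice were intermediate: they were all above MRL/lpr and overlapped with MRL/+. Compared with MRL/+, Grin2a in MRL/lpr had a log2 fold change of -1.30 ± 0.30 (SE, n = 4; limma, adjusted p = 0.0156), which was kept without each mouse in turn, and -0.85 ± 0.30 against Fn14ko (limma, adjusted p = 0.149; exact permutation p = 0.0286). In Fn14ko against MRL/+ it was -0.45 (limma, adjusted p = 0.349).

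Grin2d, found mainly in interneurons of the adult forebrain, was 0.183, 0.195, 0.180 and 0.274 in MRL/lpr, 0.334, 0.263, 0.201 and 0.174 in Fn14ko and 0.535, 0.709, 0.321 and 0.606 in MRL/+. Its log2 fold change in MRL/lpr against MRL/+ was -1.35 ± 0.36 (SE, n = 4; limma, adjusted p = 0.0265). In MRL/+ mice 2 and 4 the values were close to or below the negative controls of the same channels. With the Cy3 mice alone the value was -1.19 and no longer passed (limma, adjusted p = 0.224), nor did it without MRL/lpr mouse 1, 2 or 3, Fn14ko mouse 2 or MRL/+ mouse 4.

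The other 4 NMDA receptor subunits did not pass. Grin1, the subunit present in every NMDA receptor, was 5.25, 5.39, 5.17 and 4.49 in MRL/lpr, 4.41, 5.51, 4.59 and 2.98 in Fn14ko and 5.47, 4.41, 4.45 and 3.23 in MRL/+. Its log2 fold change in MRL/lpr against MRL/+ was 0.23, with a 95% interval of -0.28 to 0.74, and it had either sign depending on the processing, reaching -0.58 with the scanner software's processed signal (limma, adjusted p = 0.0417). Its brighter probe gave 0.35 and its dimmer probe -1.08 (limma over single probes, adjusted p = 0.343 and 0.0630). Grin2c, with 0.44, and Grin3a, with -0.56 (limma, adjusted p = 0.0569), overlapped between MRL/lpr and MRL/+. Grin3b read 3.32, 9.98, 0.165 and 0.249 in MRL/lpr, so that both mice of the first MRL/lpr array were high, and 0.108 to 0.648 in the other 8 mice.

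Grid1 encodes the delta receptor GluD1, which organizes synapses by binding cerebellins and neurexins. Its signal was 0.900, 0.722, 1.03 and 0.819 in MRL/lpr, 1.29, 1.25, 1.12 and 0.637 in Fn14ko and 1.57, 1.44, 1.44 and 1.28 in MRL/+. The MRL/+ mice were above the MRL/lpr mice without overlap, and the Fn14ko mice spanned the range between them. The log2 fold change of -0.73 ± 0.21 (SE, n = 4; limma, adjusted p = 0.0368) in MRL/lpr against MRL/+ passed in 5 of the 12 fits that each left out 1 mouse. It did not pass with the Cy3 mice alone (-0.64; limma, adjusted p = 0.0573).

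Of the 6 metabotropic receptors measured, Grm4 passed. It encodes a presynaptic receptor that dampens transmitter release. The Grm4 signal was 0.398, 0.320, 0.330 and 0.484 in MRL/lpr, 0.576, 0.452, 0.343 and 0.305 in Fn14ko and 0.736, 0.840, 0.657 and 0.850 in MRL/+. Both other groups lay below MRL/+ without overlap, by -1.02 ± 0.26 (SE, n = 4; limma, adjusted p = 0.0225) in MRL/lpr and -0.92 ± 0.26 (limma, adjusted p = 0.10) in Fn14ko. The Cy5 values of MRL/+ were near their negative controls. The brighter of its 2 probes read 1.08 to 1.23 in MRL/+ and 0.388 to 0.763 in MRL/lpr (-1.04; limma over single probes, adjusted p = 0.0202). In the Cy3 mice alone the log2 fold change in MRL/lpr was -0.94 (limma, adjusted p = 0.0825), and without MRL/+ mouse 4 the call was lost. Grm2 (-0.40) and Grm3 (0.37) also did not overlap between MRL/lpr and MRL/+ but did not pass (limma, adjusted p = 0.211 and 0.165). Grm8 had log2 fold changes of -0.02 against MRL/+ and 0.14 against Fn14ko. Grm7 was 3.29 and 9.41 in MRL/lpr mice 1 and 2, the same mice in which Grin3b was high, and 1.17 to 1.78 in all others.

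Grm5 encodes the postsynaptic receptor that Homer proteins tether. Its mean over the spots followed the brightest probe and did not pass (-0.38 in MRL/lpr against MRL/+; limma, adjusted p = 0.195), but its 3 probes gave different outcomes. In the probe whose sequence is shown above, the signal was 0.301, 0.239, 0.239 and 0.326 in MRL/lpr, 0.585, 0.455, 0.472 and 0.656 in Fn14ko and 1.04, 1.17, 1.82 and 1.90 in MRL/+. The 3 groups formed separate ranges, with MRL/lpr lowest and MRL/+ highest. Against MRL/+ the log2 fold changes were -2.39 ± 0.26 (SE, n = 4; limma over single probes, adjusted p = 0.000350) for MRL/lpr and -1.42 ± 0.26 (adjusted p = 0.0249) for Fn14ko, with -0.97 ± 0.26 (adjusted p = 0.0574) in MRL/lpr against Fn14ko.

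The Grm5 probe at chr7:94732759-94732818 read 0.200, 0.248, 0.201 and 0.251 in MRL/lpr, 0.710, 0.712, 0.431 and 0.514 in Fn14ko and 0.608, 0.823, 0.519 and 0.872 in MRL/+. All MRL/lpr mice were below both other groups, which overlapped. They were lower by log2 fold changes of -1.62 ± 0.23 (SE, n = 4; limma over single probes, adjusted p = 0.00113) against MRL/+ and -1.37 ± 0.23 (adjusted p = 0.00520) against Fn14ko. The third probe, at chr7:95282581-95282640, read 7.07 to 9.69 in MRL/lpr, 7.97 to 10.3 in Fn14ko and 7.94 to 13.2 in MRL/+, with log2 fold changes from -0.16 to -0.02. The calls of both former probes in MRL/lpr were kept without each mouse in turn, whereas the call of the first in Fn14ko was lost without Fn14ko mouse 2 or 3 or MRL/+ mouse 4. The second probe read near the negative controls in the Cy5 mice of MRL/+. In the Cy3 mice alone it gave -1.49 against MRL/+ and -1.46 against Fn14ko (limma over single probes, adjusted p = 0.0187 and 0.0422).

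**Figure D3:**
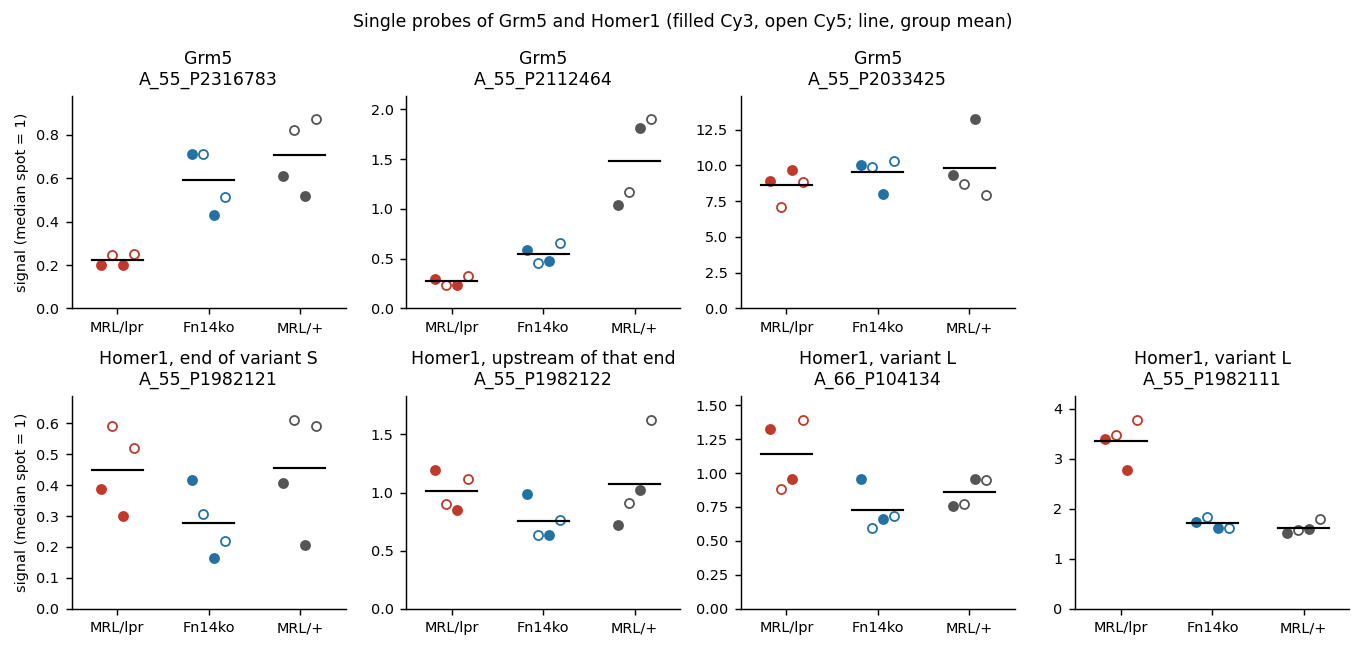
Signal of 3 Grm5 probes and 4 Homer1 probes in each mouse (filled points Cy3, open points Cy5; lines, group means; linear axes in units of the median retained spot, starting at 0 and differing between panels). A pair of Grm5 probes is lowest in MRL/lpr while the third overlaps across groups, and the Homer1 probe A_55_P1982111 of variant L reads 2.77 to 3.79 in MRL/lpr against 1.53 to 1.84 in the other 8 mice.

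The vesicular glutamate transporters mark the types of glutamatergic neurons. Slc17a7 (VGLUT1), the form of cortical pyramidal neurons, read 14.6, 8.71, 13.9 and 11.6 in MRL/lpr, 16.5, 20.3, 19.2 and 12.7 in Fn14ko and 27.4, 20.5, 30.5 and 23.8 in MRL/+. MRL/+ was highest without overlap with either group, and Fn14ko mouse 4 lay within the range of MRL/lpr. Slc17a7 thus differed from MRL/+ by -1.08 ± 0.22 on the log2 scale (SE, n = 4; limma, adjusted p = 0.00926) in MRL/lpr and by -0.58 ± 0.22 (limma, adjusted p = 0.179) in Fn14ko, with -0.50 ± 0.22 (limma, adjusted p = 0.256) in MRL/lpr against Fn14ko. Without MRL/+ mouse 4, Slc17a7 no longer passed in MRL/lpr against MRL/+.

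Slc17a6 (VGLUT2), abundant in thalamic neurons that project to the cortex, was 0.800 to 1.16 in MRL/lpr and 1.22 to 1.81 in MRL/+ (-0.68; limma, adjusted p = 0.0864). Slc17a8 (VGLUT3), which occurs in some interneurons and serotonergic neurons, was 0.512 to 0.950 in MRL/lpr and 0.243 to 0.463 in Fn14ko (1.02; limma, adjusted p = 0.0996). Neither pair of groups overlapped, and neither difference passed.

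None of the 4 membrane-associated guanylate kinases of the PSD-95 family passed. Dlg4 encodes PSD-95, the main scaffold of the excitatory postsynapse. It read 2.67, 1.26, 2.26 and 4.77 in MRL/lpr, 1.64, 1.58, 1.48 and 1.88 in Fn14ko and 7.81, 1.44, 10.1 and 1.09 in MRL/+. The Cy3 mice of MRL/+ were the highest of all 12 and its Cy5 mice among the lowest, so the log2 fold change of -0.44 in MRL/lpr had a 95% interval of -2.07 to 1.18. In the Cy3 mice alone Dlg4 was lower than in MRL/+ by -1.86 in MRL/lpr (limma, adjusted p = 0.000502) and by -2.52 in Fn14ko (limma, adjusted p = 0.000366), 2 mice in each group. Dlg3 showed a like split in MRL/+, with 12.1 and 13.3 in the Cy3 mice and 6.73 and 3.90 in the Cy5 mice. Dlg1 was 1.68 to 1.98 in MRL/lpr and 1.24 to 1.65 in MRL/+ (0.37; limma, adjusted p = 0.151), and Dlg2 had log2 fold changes between -0.07 and -0.01 in the 3 comparisons.

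Homer1 was the member that passed between MRL/lpr and Fn14ko. Its signal was 1.40, 1.32, 1.10 and 1.55 in MRL/lpr, 0.969, 0.769, 0.697 and 0.740 in Fn14ko and 0.830, 0.913, 0.877 and 1.09 in MRL/+. All MRL/lpr mice were above all mice of the other groups. In log2 terms they were higher by 0.76 ± 0.19 (SE, n = 4; limma, adjusted p = 0.0354) against Fn14ko and 0.53 ± 0.19 (limma, adjusted p = 0.0712) against MRL/+. In the former comparison Homer1 passed in 5 of the 12 fits that each left out 1 mouse (without MRL/lpr mouse 2 or 3, Fn14ko mouse 1 or MRL/+ mouse 1 or 2) and did not in the other 7. With scaling to the 75th percentile the value was 0.77 (limma, adjusted p = 0.0782).

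Of the 5 Homer1 probes, 1 passed, that of the long variant at chr13:94174815-94174874. It read 3.40, 3.47, 2.77 and 3.79 in MRL/lpr, 1.74, 1.84, 1.63 and 1.62 in Fn14ko and 1.53, 1.57, 1.60 and 1.79 in MRL/+. This probe gave log2 fold changes of 1.04 ± 0.16 (SE, n = 4; limma over single probes, adjusted p = 0.00190) against MRL/+ and 0.97 ± 0.16 (adjusted p = 0.00539) against Fn14ko, and both calls were kept without each mouse in turn. The variant L probe whose sequence is shown above read 0.879 to 1.39 in MRL/lpr, 0.599 to 0.954 in Fn14ko and 0.760 to 0.956 in MRL/+, a log2 fold change of 0.64 against Fn14ko that did not pass (limma over single probes, adjusted p = 0.192). The probe at the stop codon of variant S read 0.389, 0.593, 0.299 and 0.519 in MRL/lpr, 0.418, 0.306, 0.166 and 0.219 in Fn14ko and 0.406, 0.612, 0.207 and 0.591 in MRL/+. The groups overlapped there, with log2 fold changes of 0.06 against MRL/+ and 0.74 ± 0.40 against Fn14ko (limma over single probes, adjusted p = 0.926 and 0.369). For this probe the values of MRL/+ mice 2 and 4 were below the negative controls of their channels (0.663 and 0.823). The probe upstream of it gave 0.44 against Fn14ko, and the remaining probe, at chr13:94116595-94116654, gave 0.62 (limma over single probes, adjusted p = 0.495 and 0.245). The difference between the variants was not tested.

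Homer3, a Homer gene expressed in cerebellum and hippocampus, read 0.337, 0.528, 0.473 and 0.755 in MRL/lpr, 1.08, 1.36, 0.662 and 0.595 in Fn14ko and 2.00, 1.75, 1.16 and 0.893 in MRL/+. MRL/lpr lay below MRL/+ without overlap, and Fn14ko overlapped with both. The log2 fold change in MRL/lpr against MRL/+ was -1.46 ± 0.36 (SE, n = 4; limma, adjusted p = 0.0189), the most negative of the tested members, and was kept without each mouse in turn. In the Cy3 mice alone it was -1.93 (limma, adjusted p = 0.00272). Homer2 had -0.09 against MRL/+ and 0.18 against Fn14ko.

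Shank1 read 0.369, 0.416, 0.362 and 0.433 in MRL/lpr, 0.505, 0.550, 0.382 and 0.382 in Fn14ko and 0.716, 0.831, 0.749 and 0.914 in MRL/+. It encodes a scaffold that binds Homer and the partners of PSD-95 deep in the postsynaptic density. The MRL/lpr and Fn14ko mice overlapped with each other and all lay below the MRL/+ mice. For MRL/lpr the distance to MRL/+ was -1.02 ± 0.18 on the log2 scale (SE, n = 4; limma, adjusted p = 0.00383), kept without each mouse in turn, and for Fn14ko -0.83 ± 0.18 (limma, adjusted p = 0.0513). The MRL/+ values of the Cy5 mice were near their negative controls, and the value for the Cy3 mice alone was -1.0 (limma, adjusted p = 0.0362). The brightest of its 4 probes read 1.31 to 2.14 in MRL/+ and 0.714 to 0.830 in MRL/lpr (-1.08; limma over single probes, adjusted p = 0.00351), and the other 3 gave values from -1.11 to -0.60 that did not pass. Between MRL/lpr and Fn14ko it was -0.19, with a 95% interval of -0.58 to 0.20.

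Against MRL/+, Shank2 had log2 fold changes of -0.93 for MRL/lpr and -1.18 for Fn14ko (limma, adjusted p = 0.111 and 0.133), with overlap and with dim signals throughout (0.164 to 0.941). Shank3 had 9 retained spots, 8 of the 10 spots of a repeated probe and 1 spot of a dim probe elsewhere in the gene. The mean of these spots read 9.86, 9.93, 9.76 and 9.61 in MRL/lpr, 11.9, 8.64, 9.75 and 7.45 in Fn14ko and 8.25, 6.88, 8.17 and 6.90 in MRL/+. The 4 MRL/lpr mice were close together and above all MRL/+ mice, while the Fn14ko mice spread over both ranges. The log2 fold change of Shank3 in MRL/lpr against MRL/+ was 0.38 ± 0.18 (limma, adjusted p = 0.143), and the dim probe alone gave -1.52 (limma over single probes, adjusted p = 0.0666).

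**Figure D4:**
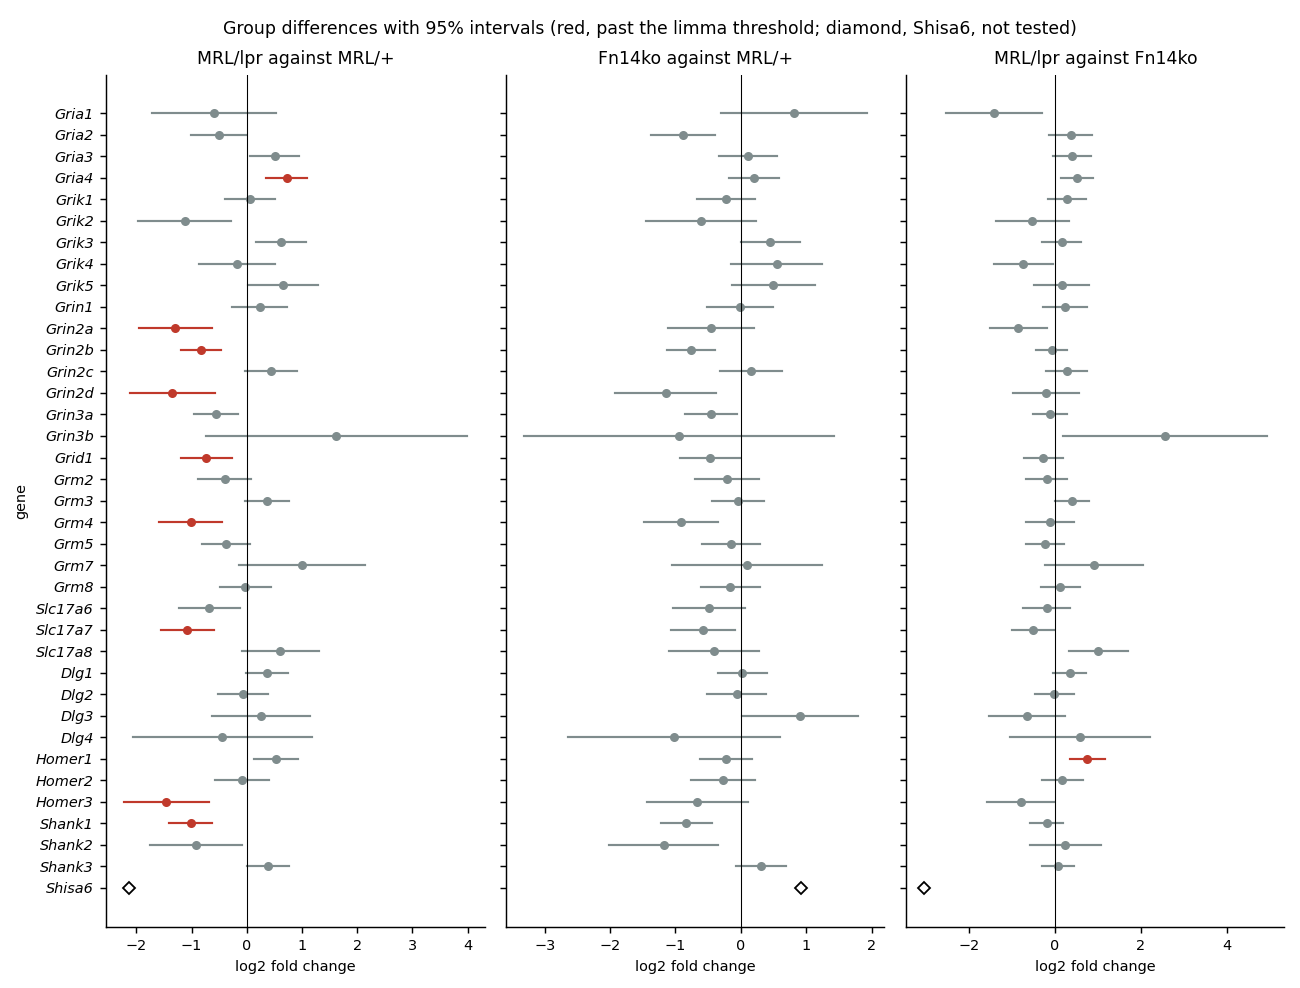
Log2 fold change of each retained member with its 95% interval in the 3 comparisons (red, past the limma threshold; vertical line, no difference; Shisa6 is a diamond without interval or test). In MRL/lpr against MRL/+ the 9 called members are Gria4 on the higher side and 8 members on the lower side, no member is called in Fn14ko against MRL/+, and Homer1 is called in MRL/lpr against Fn14ko; with scaling to the 75th percentile Gria4 and Homer1 are not called.

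When each of the 57 probes was tested singly, 17 probes of 16 members passed in MRL/lpr against MRL/+, 4 higher and 13 lower, where 15% of all probes passed (5.69% higher and 9.3% lower). In Fn14ko against MRL/+ 3 probes passed, all lower (1.09% of all probes, 0.865% lower): the Grm5 probe shown above, a Grin2b probe (-0.88; limma over single probes, adjusted p = 0.0477) and a Shank1 probe (-0.87; adjusted p = 0.0465). Between MRL/lpr and Fn14ko 3 probes passed, those of Gria2 and Homer1 higher and that of Grm5 lower (4.03% of all probes, 2.27% higher and 1.76% lower). Members that passed in MRL/lpr against MRL/+ through a single probe but not through their mean were Gria2 (-1.04), Gria3 (0.79), Grin3a (-1.31), Grm5, Dlg1 (0.91), Homer1 and Homer2 (-0.89). In the Cy3 mice alone the probes of Gria2 (-0.69), Grin3a (-1.12), Homer2 (-0.65) and Gria3 (0.77) no longer passed (limma over single probes, adjusted p = 0.183, 0.108, 0.191 and 0.0598). With the scanner software's processed signal the first 3 did not pass either, with -0.36, -0.35 and -0.42 (adjusted p = 0.425, 0.654 and 0.316).

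The genes around the receptors were listed by function: 74 genes of auxiliary receptor proteins, receptor trafficking, other postsynaptic density proteins, synaptic adhesion, and glutamate uptake and metabolism, of which 72 were measured. Of these, 16 passed in MRL/lpr against MRL/+, 9 higher and 7 lower, with a median log2 fold change of 0.13 (14.4% of all genes passed there). Against Fn14ko 6 passed, 4 higher and 2 lower, with a median of 0.00 (4.57% of all genes). In Fn14ko against MRL/+ 0 passed by limma (0.954% of all genes), and 16 had an unadjusted p under 0.05. The auxiliary proteins of AMPA and kainate receptors had 5 of 15 called in MRL/lpr against MRL/+ (2 higher and 3 lower) and 4 of 15 against Fn14ko (2 in each direction). Of the 9 trafficking genes 3 passed against MRL/+ and 1 against Fn14ko, of 18 other postsynaptic density genes 4 and 1, of 17 adhesion genes 3 and 0, and of 13 uptake and metabolism genes 1 and 0. The median log2 fold changes of the 5 lists in that order were 0.06, 0.07, 0.19, 0.07 and 0.44 against MRL/+ and -0.17, -0.01, 0.22, 0.11 and -0.17 against Fn14ko.

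Cacng2 (stargazin), which carries AMPA receptors to the surface, read 2.33, 1.38, 1.95 and 1.93 in MRL/lpr, 0.958, 0.539, 1.06 and 0.668 in Fn14ko and 0.891, 1.07, 1.01 and 1.01 in MRL/+. Gsg1l, which slows recovery of AMPA receptors from desensitization, read 2.47, 2.22, 2.46 and 2.22 in MRL/lpr, 1.14, 0.633, 0.828 and 0.484 in Fn14ko and 0.611, 0.831, 0.540 and 0.894 in MRL/+. Both were higher in all MRL/lpr mice than in any other mouse, with log2 fold changes against Fn14ko of 1.26 (limma, adjusted p = 0.0103) and 1.67 (limma, adjusted p = 0.00834). Cacng5, another AMPA receptor auxiliary subunit, and Neto1, an auxiliary subunit of kainate receptors, went the other way. Cacng5 read 0.360 to 0.603 in MRL/lpr, 0.776 to 1.27 in Fn14ko and 1.15 to 1.70 in MRL/+ (-1.06 against Fn14ko; limma, adjusted p = 0.0176). Neto1 read 1.43 to 2.05, 2.98 to 3.86 and 3.42 to 5.18 (-0.92 against Fn14ko; limma, adjusted p = 0.0216).

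Arc, an immediate early gene whose product removes AMPA receptors from the surface, was chosen after its values were seen. It read 72.2, 58.2, 52.6 and 79.5 in MRL/lpr, 18.9, 23.4, 34.3 and 25.3 in Fn14ko and 13.8, 11.8, 29.8 and 33.8 in MRL/+. The MRL/lpr mice were above all others, with log2 fold changes of 1.69 against MRL/+ and 1.38 against Fn14ko. Because Arc was picked by its values, no test is attached to them. Dlgap4, whose product links PSD-95 to Shank, read 10.8 to 13.8 in MRL/lpr, 3.41 to 5.78 in Fn14ko and 5.37 to 7.24 in MRL/+ (0.90 and 1.42; limma, adjusted p = 0.0150 and 0.00249).

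Markers of other regions and cell types were also examined. Of 8 markers of hippocampal neurons, 5 were measured and 3 were lower in MRL/lpr than in both other groups (Prox1, Dsp and Tdo2 had no retained spot). Spink8 read 0.168 to 0.520 in MRL/lpr, 1.51 to 3.23 in Fn14ko and 1.18 to 3.03 in MRL/+. C1ql2, of the dentate gyrus, read 0.173 to 0.225, 0.650 to 1.03 and 1.18 to 1.32, and Lct 0.482 to 0.558, 2.22 to 3.97 and 0.745 to 3.62. Wfs1 and Trpc6, the other 2, did not pass. The summed signal of the 5 measured markers was 16.1 to 22.0 in MRL/lpr, 19.0 to 26.1 in Fn14ko and 20.2 to 31.5 in MRL/+. Like Gria1, Grik4, Grin2a and Shisa6, the 3 called markers were lower in every MRL/lpr mouse than in every Fn14ko mouse. Of all genes, 11.3% were too. Shisa6 was picked by this contrast and the 3 markers were named because they passed in it, so their direction followed from that choice. The part of these markers in the results for the receptor genes was not tested.

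Of 10 markers of cortical excitatory neurons, all measured, 7 passed in MRL/lpr against MRL/+, where 14.4% of all genes passed. Tbr1, Cux2 and Rorb were higher, and Slc17a7, Neurod6, Neurod2 and Bcl11b lower. Slc17a7 is itself a member, as is Slc17a6 among the thalamic markers below, so these genes enter both sets. The summed signal of the 10 markers, Slc17a7 included, was 99.7 to 139 in MRL/lpr, 107 to 165 in Fn14ko and 124 to 143 in MRL/+. Of 8 interneuron markers, Pvalb, Vip and Npy passed with higher signals in MRL/lpr, relative to MRL/+, where Gria4 was higher and Grin2d lower. Of the 8, 5 had log2 fold changes above 0 there and 3 below 0, down to -0.58. The summed signals were 84.4 to 91.7 in MRL/lpr, 81.4 to 119 in Fn14ko and 63.5 to 89.3 in MRL/+. The 10 striatal markers summed to 172 in Fn14ko mouse 1 and to 12 to 44.2 in the other 11 mice, and none passed. The 8 oligodendrocyte markers summed to 50.9 to 76.5 in MRL/lpr, 82.4 to 105 in Fn14ko and 74.0 to 94.8 in MRL/+, with 2 lower in each of the comparisons of MRL/lpr. Of 10 cerebellar markers Gabra6, Cbln3 and Zic2 had no retained spot. Of the other 7, Barhl1 and Neurod1 were lower in MRL/lpr relative to MRL/+, where Homer3 was also lower, and none passed against Fn14ko. The sums were 3.97 to 12.5 in MRL/lpr, 5.26 to 6.06 in Fn14ko and 6.08 to 7.84 in MRL/+. Of 8 choroid plexus markers 6 were measured, and Clic6 was lower in both comparisons of MRL/lpr; the sums were 7.03 to 99.6, 13.6 to 182 and 17.2 to 266. Of 7 blood cell markers 6 were measured, and Hba-a1 was higher in MRL/lpr relative to MRL/+; the sums were 92.5 to 231, 34.4 to 96.1 and 26.5 to 47.7. Of 7 thalamic markers measured, 1 was lower in each comparison of MRL/lpr, of 8 microglial markers 1 was higher against MRL/+, and of 8 astrocyte markers none passed by limma (2 had an unadjusted p under 0.05 against MRL/+ and 1 against Fn14ko). The part of these tissues and cells in the results for the members was not tested.

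**Figure D5:**
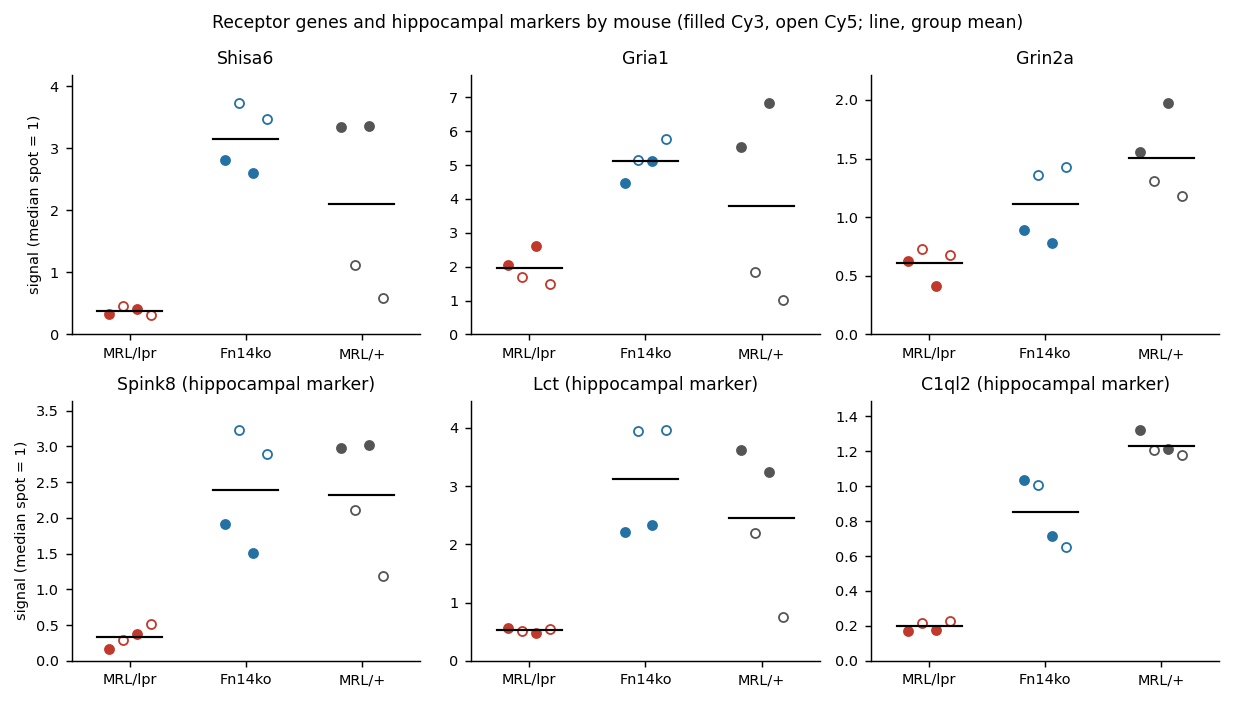
Signal of Shisa6, Gria1 and Grin2a and of the hippocampal markers Spink8, Lct and C1ql2 in each mouse (filled points Cy3, open points Cy5; lines, group means; linear axes in units of the median retained spot, starting at 0). In all 6 panels the 4 MRL/lpr points lie below the 4 Fn14ko points, as they do for 11.3% of all genes. Shisa6 was picked by this contrast. In MRL/+ the open points of Shisa6, Gria1 and Lct lie below the filled points.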

How the data were processed

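Total RNA from the cortex of each mouse was labeled with Cy3 or Cy5 and hybridized to Agilent arrays. Per the file headers, the authors extracted the scans with Agilent Feature Extraction 12.1.0.3. The deposited files give for each spot the mean foreground intensity, the median local background intensity, the software's processed signal intensity and marks of spot quality coded as a score. Groups were taken from the deposited labels, and the age and backcross from the study's methods.

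Of 43020 non-control spots, 1952 had been marked as uneven or as outliers and were removed, as were spots whose foreground did not reach 2 times the background in every one of the 12 mice, which kept 24255 spots of 17302 genes. Background was corrected by normexp with an offset of 50 in limma 3.58.1 (R 4.3.3), signals were scaled to a channel median of 1 over the retained spots, and repeated spots or probes of a gene entered as their linear mean. Log2 values were fitted by limma with dye as a term, array as a random block (correlation 0.316) and a variance trend. Benjamini-Hochberg adjustment ran over all genes, or over all 22419 probes, with a threshold of 0.05. The tests are 2-sided. Exact permutation tests used the 70 divisions of 8 mice into groups of 4. The number of arrays limits the precision: the median SE of a log2 fold change was 0.25. Whether replicate mice share more than a group is not given in the labels, and p-values measure the spread between these mice.

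The members and the lists of related genes and markers were chosen with earlier results of these data known. Values in every mouse are given for members past the threshold in any comparison, for Shisa6, and whatever their result for Gria1, Gria2, Grin1, Grin2a, Grin2b, Grm5, Slc17a7, Dlg4, Homer1 and Shank3. Of the related genes, the 3 with the smallest adjusted p among those past the threshold in each comparison are named. Arc was added after its values were seen. Alternatives concerned the background, the scaling, the filters, the merging of probes, the terms of the fit, the t-test named in the methods, and leaving out single mice or arrays. A pair of them was added after seeing the data: the fit without the Cy5 mice of MRL/+ and background from the negative controls. Python 3.11.15 with numpy 2.4.6, pandas 2.3.3 and matplotlib 3.10.9, and the R package data.table (version 1.17.8), were also used. The model was tested on simulated data.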

Additional observations from a re-analysis of the deposited data

Results flagged for a closer look

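Of 51 sets of 4 mice of a group examined among the named members, 4 had a mouse set apart from the other 3 by Dixon's test, where chance alone gives about 1 in 20. Gria4 in Fn14ko mouse 3 was 1.23, above the other Fn14ko mice. Grin2d in MRL/lpr mouse 4 was 0.274, above the other MRL/lpr mice. Grm5 in Fn14ko mouse 3 was 2.96, below the other Fn14ko mice, and in MRL/+ mouse 3 it was 5.19, above the other MRL/+ mice.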

How the results depend on the processing

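The 9 members past the threshold in MRL/lpr against MRL/+ kept their direction under every alternative run. The number of members past it there, 9 as reported, was 16 with single probes, 17 with background subtraction, 15 with the local background capped, 15 with negative controls as background, 16 with loess and quantile scaling, 0 without the filter on dim spots, 15 without the array block, 2 without the first MRL/lpr array, and 19 before and 3 after adjustment with the methods' t-test; leaving out 1 mouse gave 4 to 12. In Fn14ko against MRL/+, 0 as reported, the counts were 3 with single probes, 7 with background subtraction, 7 with the capped background, 7 with negative controls, 5 with the processed signal, 3 with that signal over bright spots, 6 with loess, 3 with the 75th percentile, 2 with only spots well above background, 2 without the dye term, 6 without the block, 1 with the Cy3 mice, 1 without the first array of Fn14ko, 1 without the first of MRL/+ and 7 with the unadjusted t-test; leaving out 1 mouse gave 0 to 6. In MRL/lpr against Fn14ko, 1 as reported, they were 3, 7, 7 and 7 under the first 4 of these, 5 and 3 with the processed signals, 5 with loess, 0 with the 75th percentile, 0 without the dim filter, 5 without the block, 0 without the variance trend, 2 with the compared groups alone, 9 with the unadjusted t-test, 0 and 2 without the first and second MRL/lpr array, 0 without either Fn14ko array and 2 and 0 without the first and second MRL/+ array; leaving out 1 mouse gave 0 to 1. The cause of these shifts was not tested, except that fewer mice entered the fits that left some out. With the replicate number as a block in place of the dye term the counts were 17, 6 and 2; 8 of 12 correlations between same-numbered mice were above 0.1 (-0.13 to 0.72), so the numbers were not taken to pair the mice.

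Changes of sign were followed only for the members whose values are given in every mouse. Among these, values that changed sign belonged to members that had not passed in the comparison concerned, Shisa6 included, which was not tested. The list below does not cover the other members, such as Grik5, which passed as lower against MRL/+ with the processed signal. In MRL/lpr against MRL/+, Grin1 was -0.37 with single probes, -0.58 with the processed signal, -0.41 with that signal over bright spots, -0.0299 with loess, -0.00371 with the 75th percentile and -0.37 with the mean of log2 spots; Shank3 was -0.57 with single probes and -0.15 with the processed signal; Gria2 was 0.34 with the processed signal; without the dim filter Gria2 was 0.0846, Grm5 0.22 and Dlg4 0.16; Dlg4 ranged from -1.05 to 0.14 when 1 mouse was left out, positive without MRL/+ mouse 3. In Fn14ko against MRL/+, Shank3 was -0.46 with single probes, -0.11 with the processed signal and -0.0589 with bright spots of that signal, and Homer1 0.0568 and 0.13 with the latter 2; Gria4 was -0.0484 with the 75th percentile; without the dim filter Grin1 was 0.71, Grin2a 0.13, Grid1 0.26, Grm5 0.57, Slc17a7 0.15 and Homer1 0.50; Gria1 and Shisa6 were -0.36 and -0.31 with the Cy3 mice and -0.18 and -0.21 without the Cy5 mice of MRL/+; Grin1 was 0.02 to 0.13 without single mice (0.05, 0.13, 0.06, 0.02 and 0.02), 0.19 without the second Fn14ko array and 0.17 without the first MRL/+ array. In MRL/lpr against Fn14ko, Grin2d was 0.0048 with background subtraction, 0.11 with the capped background, 0.0286 with the processed signal, 0.20 with negative controls, 0.13 without the first Fn14ko array and -0.39 to 0.0134 when 1 mouse was left out; Shank3 was -0.10 with single probes, -0.0181 with the capped background, -0.0388 with the processed signal, -0.0522 without the dim filter, -0.0293 with negative controls, -0.14 with the Cy3 mice and -0.0502 without the second Fn14ko array; Grm4 was 0.0061 with negative controls, -0.24 to 0.0655 when 1 mouse was left out and 0.22 without the first Fn14ko array, and without that array Grid1 was 0.0317 and Shank1 0.0454.

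Dim members are limited by signal over background: 19 of the 68 probes were well above background in all 12 mice.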
